A study of Mus musculus with 6 samples.

Results

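Long noncoding RNAs and host transcripts of small RNAs were followed in transgenic CD4+ T cells of LCMV-infected mice that differed in surface CD25, the alpha subunit of the receptor for interleukin-2. The RNAs were taken by name from the deposited table of read counts: Malat1 and Neat1, the small nucleolar RNA (snoRNA) hosts Gas5, Snhg1, Snhg5 and Snhg12, and the microRNA hosts Mir17hg and Dleu2. Of the 8 listed RNAs, 7 had a row under their Ensembl identifier, out of 15445 rows in all, and all 7 were tested. Snhg1 had none, and was followed through the snoRNAs inside it. Monoclonal transgenic CD4+ T cells, marked by Thy1.1, were sorted from spleens of C57BL/6 mice on day 5 of infection with LCMV, lymphocytic choriomeningitis virus, into a CD25-high group of 3 libraries and a CD25-low group of 3 libraries. Both groups carried the same transgene and the same infection, and no uninfected cells were part of the comparison. The labels number the libraries 1 to 3 in each group but do not say whether they came from separate animals, so p-values here measure library-to-library spread only, and part of it may be technical. Where values of the 3 libraries of a group are listed, they follow the library numbers.

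Malat1 and Neat1 are long RNAs that stay in the nucleus: Malat1 gathers in the nuclear speckles that store splicing factors, and Neat1 is the scaffold on which paraspeckles form. Gas5 and the Snhg genes carry snoRNAs in their introns, which guide chemical modification of ribosomal RNA and other RNAs. Their spliced remainder is short-lived, and in Gas5 it is known to be destroyed by nonsense-mediated decay when it is translated. Mir17hg is the precursor of the miR-17-92 cluster, which drives proliferation of activated lymphocytes, and Dleu2 that of miR-15a and miR-16, which restrain the cell cycle.

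The cells had the T cell identity in their label: all 8 listed T cell markers had a row, with summed levels of 2409.6 to 2688 CPM, which are counts scaled to a common library size, in the CD25-high libraries and 2396 to 3369.7 CPM in the CD25-low libraries. Of these 8, Cd3d and Cd3g, chains of the T cell receptor complex, were lower in all CD25-high libraries than in any CD25-low one, and passed edgeR's test only when same-numbered libraries were compared as pairs (log2 fold changes -1.01 and -0.86, edgeR adjusted p = 0.0134 and 0.0135, against 0.204 and 0.279 without pairs). Both of these calls were lost without pair 1 (edgeR adjusted p = 0.0729 and 0.0621). Il2ra, which encodes CD25, stood at 1536, 432 and 666 CPM in the CD25-high libraries, against 20.7, 29.4 and 35.7 CPM in the CD25-low ones. The totals were 16787233 to 18847288 counts in CD25-high libraries and 18810599 to 23567066 counts in CD25-low libraries. The B cell markers Ms4a1, Cd79a and Pax5 had no row, and those B cell markers that had one summed to 3.27 to 16 CPM in the CD25-high libraries and 8.98 to 16 CPM in the CD25-low libraries. Of 10 myeloid markers 5 had a row, Cd14, Adgre1, Flt3, Siglech and S100a8 having none, and their sum was 24.1, 81.2 and 74.4 CPM in the CD25-high libraries and 7.77, 29.0 and 33.9 CPM in the CD25-low ones. Most of that sum was Itgam, an integrin chain that activated T cells can also carry, which was called higher in CD25-high cells in the paired comparison (log2 fold change 1.57, edgeR adjusted p = 0.00130), also without any 1 pair, and not in the unpaired one (1.42, edgeR adjusted p = 0.433). The part of other cells in the values below was not tested.

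The microRNAs inside the 2 microRNA hosts show what each host delivers to the cell. All 8 mature sequences below were taken from RefSeq (GRCm38.p6); capitals mark the seed, bases 2 to 8, which pairs with target messages. The first 6 lie in Mir17hg, on the plus strand of chromosome 14, and the last 2 in Dleu2, on the minus strand of the same chromosome.
miR-17-5p: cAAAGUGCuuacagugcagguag
miR-20a-5p: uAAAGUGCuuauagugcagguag
miR-18a-5p: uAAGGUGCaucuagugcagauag
miR-19a-3p: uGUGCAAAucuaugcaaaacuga
miR-19b-3p: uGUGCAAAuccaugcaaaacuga
miR-92a-3p: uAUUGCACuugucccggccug
miR-15a-5p: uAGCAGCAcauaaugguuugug
miR-16-5p: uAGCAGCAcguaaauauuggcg
miR-17 and miR-20a share a seed, miR-19a and miR-19b share another, and miR-15a and miR-16 share one of their own, and microRNAs with the same seed share possible targets. Mature microRNAs were not analysed here.

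Shown next are 4 snoRNAs inside the hosts whose rows, as described below, were called higher in the libraries numbered 1. They were taken from the GENCODE M21 transcript sequences and are written as DNA in the direction of the RNA. Capitals mark a C box (TGATGA within the first 20 bases) and a D box (CTGA within the last 20 bases). These are the short motifs that hold the box C/D class of snoRNA in its protein complex. Snord47, Snord78 and Snord80 lie in Gas5 and Snord99 in Snhg12.
Snord47: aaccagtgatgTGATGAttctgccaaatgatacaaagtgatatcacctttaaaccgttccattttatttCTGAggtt
Snord78: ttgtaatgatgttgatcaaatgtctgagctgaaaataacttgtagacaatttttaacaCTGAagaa
Snord80: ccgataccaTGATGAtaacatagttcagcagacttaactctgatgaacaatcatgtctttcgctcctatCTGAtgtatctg
Snord99: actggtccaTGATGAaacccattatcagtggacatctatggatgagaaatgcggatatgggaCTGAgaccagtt
Snord78 lacked these exact C box letters in that window. Only the strand of the RNA was searched, and both motifs were present in 64.8% of the 454 annotated mouse snoRNAs of 60 to 100 bases.

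Malat1, at chr19:5795690-5802672 on the minus strand (mm10, GENCODE M21), took rank 8 among all 15445 rows by mean CPM, which is not corrected for length. It had 2941, 3528 and 3571 CPM in the CD25-high libraries, against 4306, 6548 and 4420 CPM in the CD25-low ones. All 3 CD25-high libraries lay below all 3 CD25-low libraries. The mean was 3347 ± 352 CPM in the CD25-high and 5091 ± 1263 CPM in the CD25-low libraries (SD, n = 3 each), a log2 fold change of -0.61 ± 0.21 (SE). This difference did not pass edgeR's quasi-likelihood test over all genes (adjusted p = 0.318, Benjamini-Hochberg). With the replicate number as a block, which compares each CD25-high library with the CD25-low library of the same number, it was -0.58 ± 0.14 and passed (edgeR adjusted p = 0.0291). Malat1 was lower in CD25-high cells in each of the 3 pairs, by log2 differences of -0.55, -0.89 and -0.31. The blocked call was lost without pair 1 (edgeR adjusted p = 0.110) and without pair 2 (edgeR adjusted p = 0.135).

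Neat1, the paraspeckle scaffold, lies next to Malat1, 22036 bases away on the same strand, at chr19:5824708-5845478. It had 73.4, 132 and 151 CPM in the CD25-high libraries and 94.4, 193 and 109 CPM in the CD25-low ones. The groups overlapped, and the lowest value in each group was that of library 1. Neat1 differed by -0.15 ± 0.33 on the log2 scale between CD25-high and CD25-low cells (edgeR adjusted p = 0.911), and by -0.15 with the replicate block (edgeR adjusted p = 0.770). Without correction for length, Neat1 reads amounted to 2.50%, 3.74% and 4.23% of Malat1 reads in the CD25-high libraries and 2.19%, 2.94% and 2.46% in the CD25-low ones.

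Gas5, at chr1:161034422-161038539 on the plus strand, took rank 57 by the same measure. It had 1204, 652 and 906 CPM in the CD25-high libraries and 1317, 563 and 542 CPM in the CD25-low ones. Library 1 was the highest of its group on both sides, and the groups overlapped. The log2 fold change between CD25-high and CD25-low cells was 0.19 ± 0.35 (edgeR adjusted p = 0.893). Within the 3 pairs the log2 differences were -0.13, 0.21 and 0.74, so the direction was not the same in all of them.

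Snhg5, at chr9:88521050-88522929 on the minus strand, is a further snoRNA host. It had 134, 91.8 and 131 CPM in the CD25-high libraries and 167, 61.5 and 76.5 CPM in the CD25-low ones. Its log2 fold change was 0.23 ± 0.35 (edgeR adjusted p = 0.865), with pair differences of -0.32, 0.58 and 0.77. Snhg12, at chr4:132308623-132311024 on the plus strand, had 85.1, 35.0 and 63.0 CPM in the CD25-high libraries and 96.6, 21.7 and 34.0 CPM in the CD25-low ones. Its log2 fold change was 0.27 ± 0.50 (edgeR adjusted p = 0.895), with pair differences of -0.18, 0.69 and 0.89. In both hosts, as in Gas5, library 1 of the CD25-low group held the highest value of all 6, and pairs 2 and 3 were higher in CD25-high cells while pair 1 was not. Without CD25-low library 1 the log2 fold changes of Gas5, Snhg5 and Snhg12 were 0.74, 0.79 and 1.13, and none passed edgeR's test (adjusted p = 0.309, 0.254 and 0.283).

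Mir17hg, at chr14:115042879-115046727 on the plus strand, had the fewest reads of these RNAs. Its level was 47.2, 20.6 and 23.8 CPM in the CD25-high libraries and 33.5, 21 and 27.3 CPM in the CD25-low ones. Library 1 was again the highest of each group, and the groups overlapped. The log2 fold change was 0.16 ± 0.34 (edgeR adjusted p = 0.907), and it was -0.13 without the libraries numbered 1. The single microRNA row inside it, that of Mir17, held 3, 0 and 5 reads in the CD25-high libraries and 0, 4 and 15 reads in the CD25-low ones, too few to be tested.

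Dleu2, at chr14:61602839-61682373 on the minus strand, had 99.1, 137 and 114 CPM in the CD25-high libraries, against 166, 182 and 192 CPM in the CD25-low ones. Every CD25-high library lay below every CD25-low library. The mean was 117 ± 19.2 CPM in the CD25-high and 180 ± 13.3 CPM in the CD25-low libraries (SD, n = 3 each), a log2 fold change of -0.63 ± 0.20 that did not pass the test (edgeR adjusted p = 0.259). With the replicate block it was -0.64 ± 0.16 and passed (edgeR adjusted p = 0.0359). The pair differences were -0.74, -0.41 and -0.76. The blocked call was kept without pair 2 (edgeR adjusted p = 0.0451) and lost without pair 1 (edgeR adjusted p = 0.0988) or pair 3 (edgeR adjusted p = 0.183).

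**Figure D1:**
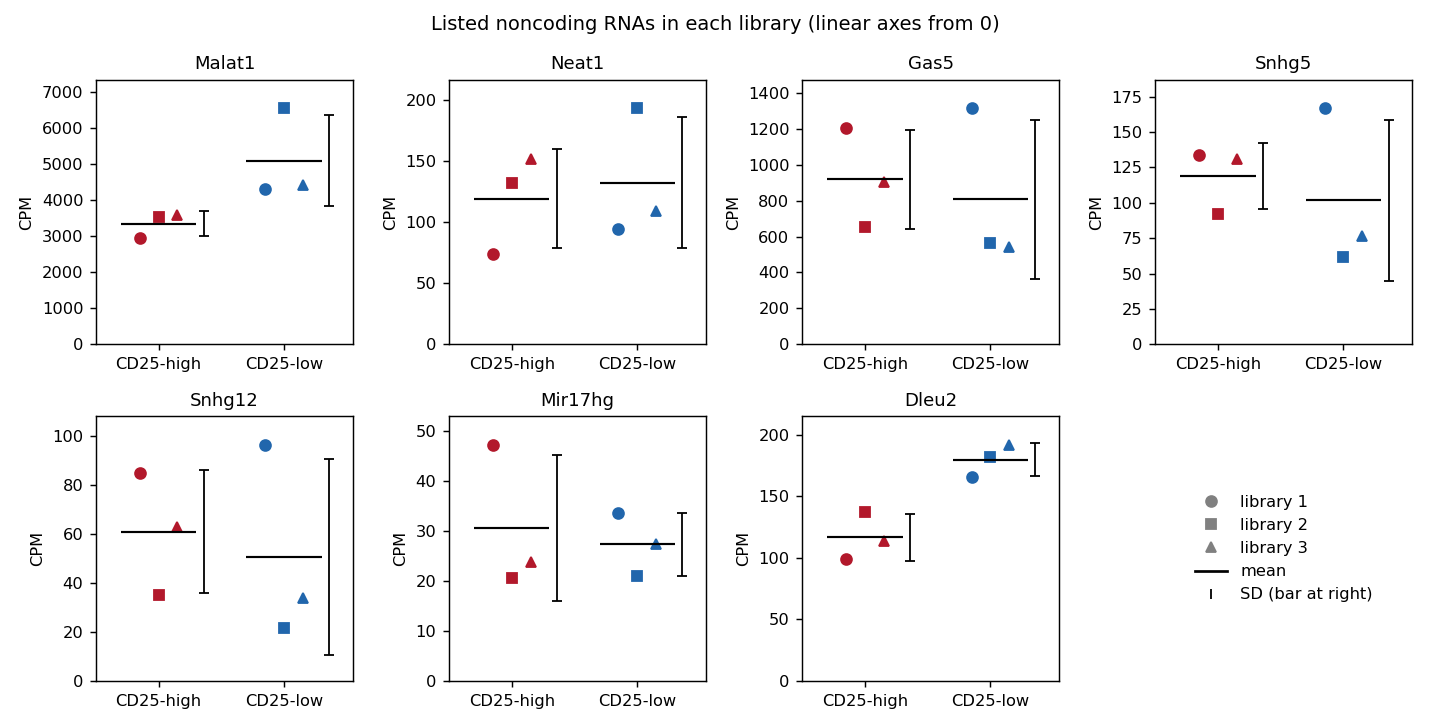
Level of each listed RNA that had a row, in CPM on linear axes that start at 0, in CD25-high libraries (left, red) and CD25-low libraries (right, blue); circles, squares and triangles are libraries 1, 2 and 3, the horizontal line is the mean and the bar at its right the SD (n = 3). Malat1 and Dleu2 are lower in all CD25-high libraries than in any CD25-low library, while in Gas5, Snhg5, Snhg12 and Mir17hg library 1 of the CD25-low group lies above the other CD25-low libraries.

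Over the 7 RNAs with a row, 0 passed edgeR's test between CD25-high and CD25-low cells without the block, where 0.655% of the 12987 tested genes did. At an unadjusted edgeR p under 0.05 there were 2, Malat1 and Dleu2, where 11.1% of all tested genes reached that level; DESeq2 and limma-voom likewise called 0 of the 7. With the block 2 of 7 passed, both lower in CD25-high cells, where 4.63% of all tested genes passed in either direction and 2.90% passed as lower. These were also the 2 RNAs without overlap between groups, where 9.54% of tested genes had all CD25-high libraries lowest. It follows from the lack of overlap that both were lower in every pair, as 20.2% of tested genes were. The other 5 had no consistent direction over the 3 pairs. Since libraries are made from many cells at once, fewer cells with an RNA and less of it per cell cannot be told apart.

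Levels can be set against each other only per length. The lengths used join the exons of all annotated transcripts, including those that keep introns (3760 bases for Gas5 and 2402 for Snhg12). Levels of spliced snoRNA hosts may thus be understated, and the order below holds for these lengths alone. The same goes for any RNA made mainly as a shorter transcript, which was not checked for Neat1 or the others. Per kilobase of annotated exon, Malat1 was highest, at 421 to 511 CPM in the CD25-high and 617 to 938 CPM in the CD25-low libraries. Gas5 followed at 173 to 320 CPM per kilobase in the CD25-high and 144 to 350 CPM per kilobase in the CD25-low libraries, without overlap with Malat1. Snhg5 came next at 53.1 to 77.7 CPM per kilobase in the CD25-high and 35.6 to 96.6 CPM per kilobase in the CD25-low libraries. Snhg12, at 14.6 to 35.4 CPM per kilobase in the CD25-high and 9.04 to 40.2 CPM per kilobase in the CD25-low libraries, overlapped with Snhg5 in range, and also with Dleu2 at 8.74 to 12.1 and 14.7 to 17 CPM per kilobase in the CD25-high and CD25-low libraries. Mir17hg stood at 5.81 to 13.4 CPM per kilobase in the CD25-high and 5.94 to 9.47 CPM per kilobase in the CD25-low libraries. Neat1, with joined exons of 20771 bases, stood at 3.53 to 7.28 CPM per kilobase in the CD25-high and 4.55 to 9.27 CPM per kilobase in the CD25-low libraries. Its range overlapped with that of Mir17hg.

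For 5 of the 7 RNAs library number held a larger share of the sum of squares of log2 CPM over the 6 libraries than the CD25 group did. Library number has 3 levels and the CD25 group 2, which by itself favours the number, and 67.5% of all tested genes had the larger share for number. Both libraries numbered 1 were set against the 4 numbered 2 and 3, with the CD25 group kept as a term. This comparison was chosen because earlier results of these data had shown the libraries numbered 1 to stand apart. Its p-values and calls, here and below, therefore describe these libraries and do not carry their nominal meaning. Gas5 was higher in libraries numbered 1 by 0.95 ± 0.18 on the log2 scale (edgeR adjusted p = 0.00669) and Snhg12 by 1.32 ± 0.28 (edgeR adjusted p = 0.0127). Snhg5 at 0.80 ± 0.23 (edgeR adjusted p = 0.0510) and Mir17hg at 0.79 ± 0.24 (edgeR adjusted p = 0.0666) missed the threshold, although neither overlapped between the library numbers. Neat1 went the other way and was lower in libraries numbered 1 by a log2 difference of -0.81 ± 0.22 (edgeR adjusted p = 0.0429). Malat1 at -0.31 (edgeR adjusted p = 0.297) and Dleu2 at -0.26 (edgeR adjusted p = 0.404) did not pass.

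Thus 2 of 7 RNAs were called higher in libraries numbered 1, where 3.19% of tested genes were, and 1 of 7 lower, where 3.98% were. By position alone, 4 of 7 had both libraries numbered 1 above the other 4, where 12.2% of tested genes did, and 1 of 7 had both below, where 13.7% did. Of the sum of squares, library number held 80.3% for Gas5, 66.0% for Snhg5, 82.0% for Snhg12, 86.5% for Mir17hg and 73.7% for Neat1. For Malat1 and Dleu2 it was the CD25 group that held most, with 64.7% and 82.0%. Over all tested genes the median share was 43.1% for library number and 18.0% for the CD25 group. When 1 of the 2 libraries numbered 1 is left out, a single library stands against the other 4, so that the spread comes from those others and the single library is assumed to vary like them. The calls of Gas5 and Snhg12 were lost without CD25-low library 1 (edgeR adjusted p = 0.144 and 0.238). That of Neat1 was lost without any single library other than CD25-low library 3 (highest edgeR adjusted p = 0.273). The library-number difference of Snhg5 was 0.27 without CD25-low library 1 (edgeR adjusted p = 0.615) and passed without CD25-high library 1 or 3 (edgeR adjusted p = 0.0279 and 0.0242). That of Mir17hg was 0.47 without CD25-high library 1 (edgeR adjusted p = 0.477) and passed without CD25-low library 3 (edgeR adjusted p = 0.0495).

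Other measures also moved with the library number. The share of counts on mitochondrial ribosomal RNA was 34.0% and 35.3% in the libraries numbered 1, against 29.3% to 33.1% in the other 4. All 8 T cell markers had a negative log2 difference, with a median of -0.53 and 1 call, and Itgam was lower in libraries numbered 1 by a log2 difference of -2.14 (edgeR adjusted p = 0.000542). The B cell markers with a row summed to 16 CPM in each library numbered 1, against 3.27 to 10.1 CPM in the other 4, and one of them, Cd22, had a log2 difference of 1.39 without overlap (edgeR adjusted p = 0.0509). Of 5 tested transcription factors that can activate Mir17hg, 1 was called higher and 1 lower in libraries numbered 1. Over all tested genes 3.19% were called higher and 3.98% lower. Myc was higher by 1.64 (edgeR adjusted p = 0.00332), a call lost without CD25-high library 1 (1.02, edgeR adjusted p = 0.129). E2f2 was lower, by a log2 difference of -1.11 (edgeR adjusted p = 0.00189), also without any single library, and E2f1 had -0.97 (edgeR adjusted p = 0.0985). The part of these measures in the differences of the noncoding RNAs was not tested.

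**Figure D2:**
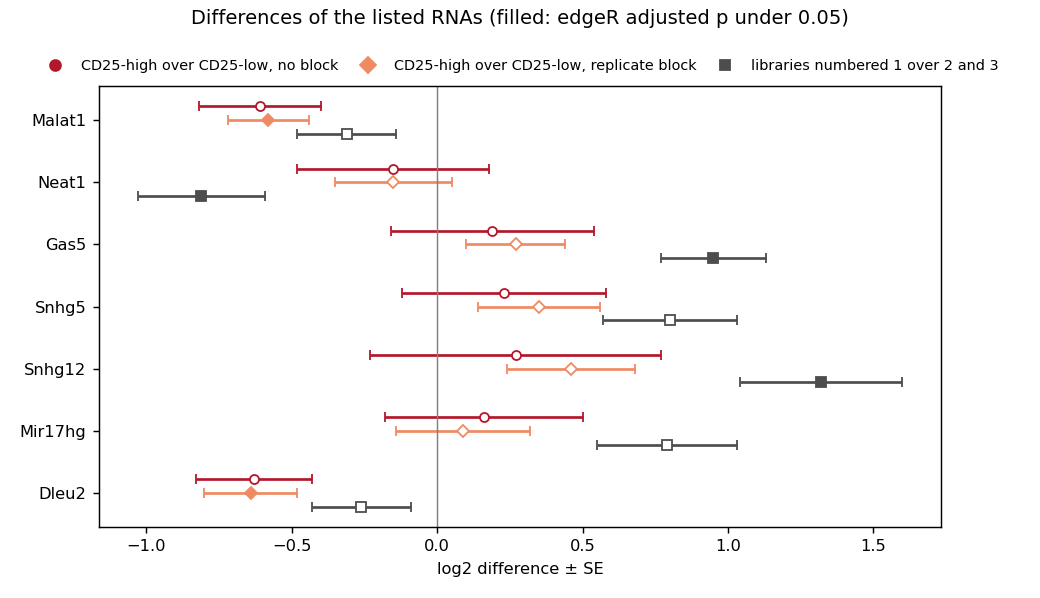
Log2 differences of the listed RNAs with their SE: CD25-high over CD25-low without a block (circles) and with the replicate block (diamonds), and libraries numbered 1 over those numbered 2 and 3 (squares); filled symbols have an edgeR adjusted p under 0.05. Malat1 and Dleu2 are filled only for the blocked CD25 comparison, and Neat1, Gas5 and Snhg12 only for the library number.

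The snoRNAs inside the hosts gave a further reading of the same loci. Rows for 9 snoRNAs lay within Gas5, 8 within Snhg1 and 3 within Snhg12, all of them wholly inside annotated exons of their host, because the annotation includes transcripts that keep the introns. Reads of a snoRNA and of an unspliced host cannot be told apart, and the number of host reads counted again under a snoRNA is unknown. The 9 rows in Gas5 summed to 284, 124 and 164 CPM in the CD25-high libraries and 246, 102 and 98.4 CPM in the CD25-low ones. Against the Gas5 count this was 18.1% to 23.6% in CD25-high and 18.2% to 18.7% in CD25-low libraries.

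Snord78, the row in Gas5 with the most reads, had 77.1, 38.5 and 45.7 CPM in the CD25-high libraries and 77.0, 32.9 and 29.7 CPM in the CD25-low ones. Both libraries numbered 1 stood above the other 4, by 1.09 ± 0.20 on the log2 scale (edgeR adjusted p = 0.00557). Snord47 had 34.2, 10.1 and 11.8 CPM in the CD25-high libraries and 30.2, 10.8 and 8.97 CPM in the CD25-low ones. It had the largest library-number difference of the 9 rows, 1.63 ± 0.26 (edgeR adjusted p = 0.00250), and a CD25 difference of 0.17 ± 0.56 (edgeR adjusted p = 0.946). Snord80 was higher in libraries numbered 1 by 1.32 ± 0.27 (edgeR adjusted p = 0.00982). The call of Snord47 was kept without any single library (highest edgeR adjusted p = 0.0398), again with a single library on one side where a library numbered 1 was left out, that of Snord78 was lost without CD25-low library 1 (edgeR adjusted p = 0.0901), and that of Snord80 was lost without either library numbered 1 (edgeR adjusted p = 0.0717 without the CD25-high and 0.0832 without the CD25-low one).

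Of the 9 rows in Gas5, 6 were called higher in libraries numbered 1 and 7 did not overlap between library numbers, with a median log2 difference of 1.09, where 3.19% of all tested genes were called higher and 12.2% had both libraries numbered 1 on top. The 9 rows share their host, and so are not independent of it or of each other. Between CD25-high and CD25-low cells 0 of the 9 were called with edgeR, with or without the block, all 9 had a positive log2 fold change, and the median was 0.59. At an unadjusted edgeR p under 0.05 there were 0 of the 9, and DESeq2 and limma-voom called 0. The 8 rows in Snhg1 stood in for the host. They summed to 80.8, 37.8 and 47.1 CPM in the CD25-high libraries and 55.5, 27.6 and 30.5 CPM in the CD25-low ones. All 8 had a positive log2 fold change between CD25-high and CD25-low cells with a median of 0.55, and all 8 a positive library-number difference with a median of 1.02; edgeR called 0 in either comparison, with 0 of 8 at an unadjusted p under 0.05 for CD25 and 4 of 8 for library number. Snord22, the longest of them, had 26.9, 15.8 and 20 CPM in the CD25-high libraries and 23.0, 12.7 and 10.9 CPM in the CD25-low ones. In Snhg12, Snord99 was higher in libraries numbered 1 by 1.64 ± 0.42 (edgeR adjusted p = 0.0335), a call lost without any single library other than CD25-high library 3 (highest edgeR adjusted p = 0.279).

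Positive log2 fold changes between CD25-high and CD25-low cells were also the more frequent among the snoRNA rows outside these hosts, a group looked at after its values were seen. Of these 148 tested rows, 74.3% had a positive log2 fold change with a median of 0.47, and edgeR called 0 (10 at an unadjusted p under 0.05), as did DESeq2 and limma-voom. The 45 tested microRNA rows had 66.7% positive and a median of 0.34, and protein-coding genes 50.6% and 0.01. For the library number the median over the 148 snoRNA rows was 0.37 and 2 were called, both higher in libraries numbered 1. This was a smaller share than the 3.19% of all tested genes that were called higher.

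**Figure D3:**
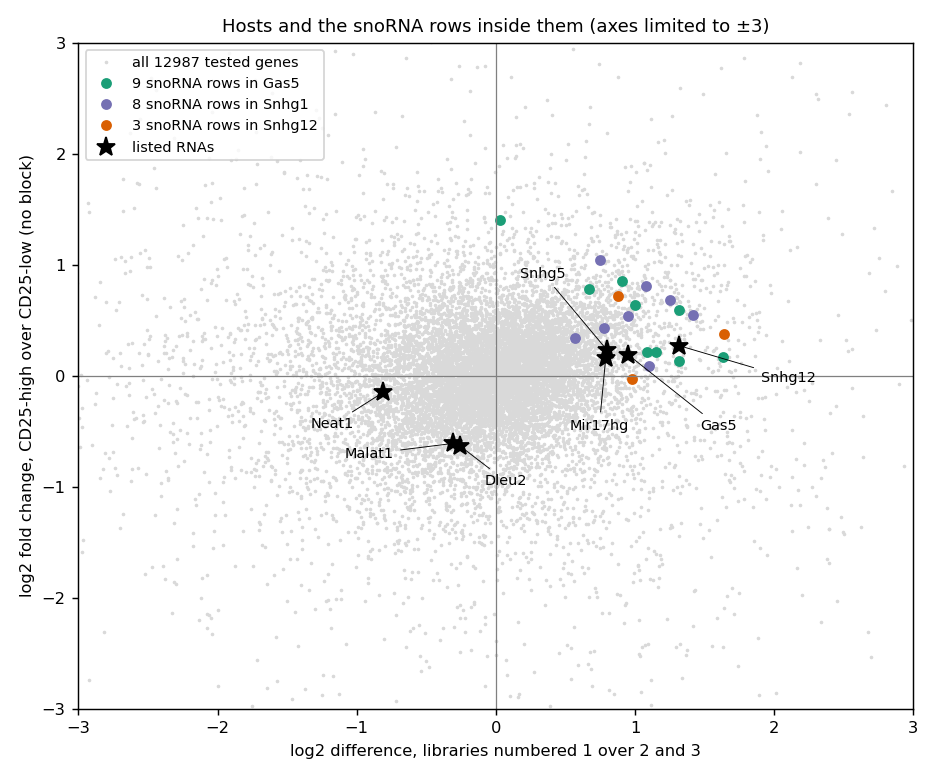
Each tested gene (grey), the snoRNA rows inside Gas5, Snhg1 and Snhg12 (coloured points) and the listed RNAs (stars), by log2 difference of libraries numbered 1 over 2 and 3 (x axis) and log2 fold change of CD25-high over CD25-low without the block (y axis); both axes are limited to ±3. All snoRNA rows shown lie right of 0, as do Gas5 and Snhg12 (Snhg1 has no row), whereas Malat1, Dleu2 and Neat1 lie left of 0 and below 0.

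The start sites of the 4 snoRNA hosts are shown because the hosts with a row varied together over the libraries. Genes of this class commonly begin with a run of pyrimidines, the 5′ terminal oligopyrimidine tract, which ties their translation to growth signals. The windows run from 20 bases before to 50 bases after a RefSeq start (GRCm38.p6), on the strand of the gene; capitals mark the longest run of C and T, and for Gas5 the second of its RefSeq starts is given, since the window of the first held no run longer than 3 bases.
Gas5, chr1:161035146-161035215, plus strand: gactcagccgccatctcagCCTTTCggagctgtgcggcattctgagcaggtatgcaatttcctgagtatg
Snhg1, chr19:8723467-8723536, plus strand: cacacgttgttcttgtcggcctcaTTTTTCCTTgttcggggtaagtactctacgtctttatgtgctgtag
Snhg5, chr9:88522848-88522917, minus strand: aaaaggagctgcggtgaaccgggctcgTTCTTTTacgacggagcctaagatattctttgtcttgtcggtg
Snhg12, chr4:132308658-132308727, plus strand: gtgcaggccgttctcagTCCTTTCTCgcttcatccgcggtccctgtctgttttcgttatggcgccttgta
The runs were 6, 9, 7 and 9 bases long, in that order. Among 32851 RefSeq promoter windows of the same length, 54.5% held a run of at least 6, 37.7% one of at least 7 and 17.2% one of at least 9, so runs of these lengths are common. In windows of the same kind the longest run was 13 bases for Dleu2, a length reached by 4.14% of promoter windows, and 4 for Malat1. Both began at -15 from the RefSeq start, and the Dleu2 run ended before that start, so outside the RNA. The host runs began at -1, 5, 8 and -3, in the order above. The Gas5 window was chosen for its run, which its percentage does not allow for. The RefSeq start used for Gas5, at 161035166, lies inside its annotated span, which begins at 161034422. For Mir17hg the run was 9 bases, but the RefSeq start used, at 115044390, lies inside its annotated span, between miR-19b and miR-92a. Terminal tracts were not tested.

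Likeness between RNAs was measured as the root mean square difference of log2 CPM, centred per gene, over the 6 libraries and 7308 genes with a mean of at least 10 CPM. Nearest to Gas5 were Mrps30 and Acad9, a mitochondrial ribosomal protein and an acyl-CoA dehydrogenase, at 0.087 and 0.093, and Snhg5 ranked 29 at 0.164. Nearest to Snhg5 were Rpl26, a ribosomal protein with many copies in the genome whose count is uncertain for that reason, at 0.090 and the chaperonin subunit Cct3 at 0.109, and Gas5 ranked 17. Nearest to Snhg12 were Mrto4, a ribosome assembly factor, at 0.190 and Zfas1, another snoRNA host, at 0.191. Gas5 and Snhg5 ranked 35 and 24 for Snhg12, at 0.320 and 0.300. In the other direction Snhg12 ranked only 470 for Gas5 and 294 for Snhg5. Mir17hg was nearest to Noc3l at 0.065 and Isoc1 at 0.109, Neat1 to Ankrd16 at 0.104 and Zmat2 at 0.106. Malat1 was nearest to an Ensembl gene without a symbol in the annotation at 0.047 and to Emb at 0.084, and Dleu2 to Gm15283 at 0.040 and Shisa5 at 0.067. Over 6 libraries such nearness is a description of these profiles alone.

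Around Dleu2, some rows of the locus were also low in CD25-high cells and others were not. Gm27010, a noncoding row in an intron of Dleu2 on the same strand with no shared exon base, had 4.93, 20.2 and 13.7 CPM in the CD25-high libraries and 15.9, 28.4 and 38.2 CPM in the CD25-low ones. It passed with the replicate block (log2 fold change -1.21, edgeR adjusted p = 0.0334) and not without it (-1.09, edgeR adjusted p = 0.442). Gm27017, on the opposite strand, had 2.21, 4.42 and 1.47 CPM in the CD25-high libraries, against 7.49, 13.1 and 7.2 CPM in the CD25-low ones. All its CD25-high libraries lay below its CD25-low ones. The log2 fold change of Gm27017 was -1.86 with the block (edgeR adjusted p = 0.0187) and -1.77 ± 0.51 without it (edgeR adjusted p = 0.201), and DESeq2 called it too (adjusted p = 0.0298). Kcnrg, a protein-coding gene on the opposite strand, had 0.113, 1.54 and 2.43 CPM in the CD25-high libraries, against 5.74, 4.26 and 6.49 CPM in the CD25-low ones, and did not pass with the block (log2 fold change -2.37, edgeR adjusted p = 0.0883) or without it (-2.01, edgeR adjusted p = 0.374), although it passed with the block when pair 2 or pair 3 was left out (edgeR adjusted p = 0.0231 and 0.0439). Trim13, which also overlaps Dleu2 on the opposite strand, had 2.15, 1.49 and 0.846 CPM in the CD25-high libraries and 0.875, 3.11 and 2.07 CPM in the CD25-low ones, with overlap (log2 fold change -0.43, edgeR adjusted p = 0.870). The nearest tested genes on either side, Spryd7 and Rnaseh2b, had log2 fold changes of 0.11 and 0.06 (edgeR adjusted p = 0.965 and 0.963). Whether reads were counted by strand is not given in the sources used here. Reads of Dleu2 and of rows on the opposite strand may thus not be fully separate. Reads of unspliced Dleu2 could also be counted under Gm27010, so that row need not be independent of Dleu2. Gm26916 shares all 352 of its exon bases with Dleu2 on the opposite strand and is reported in the plot only. The blocked calls of Gm27010 and Gm27017 were kept only without pair 2 (edgeR adjusted p = 0.0110) and only without pair 1 (edgeR adjusted p = 0.0465), in that order, when 1 pair was left out. Mir16-1, the microRNA row in Dleu2, held 1, 1 and 4 reads in the CD25-high libraries and 0, 12 and 5 reads in the CD25-low ones.

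**Figure D4:**
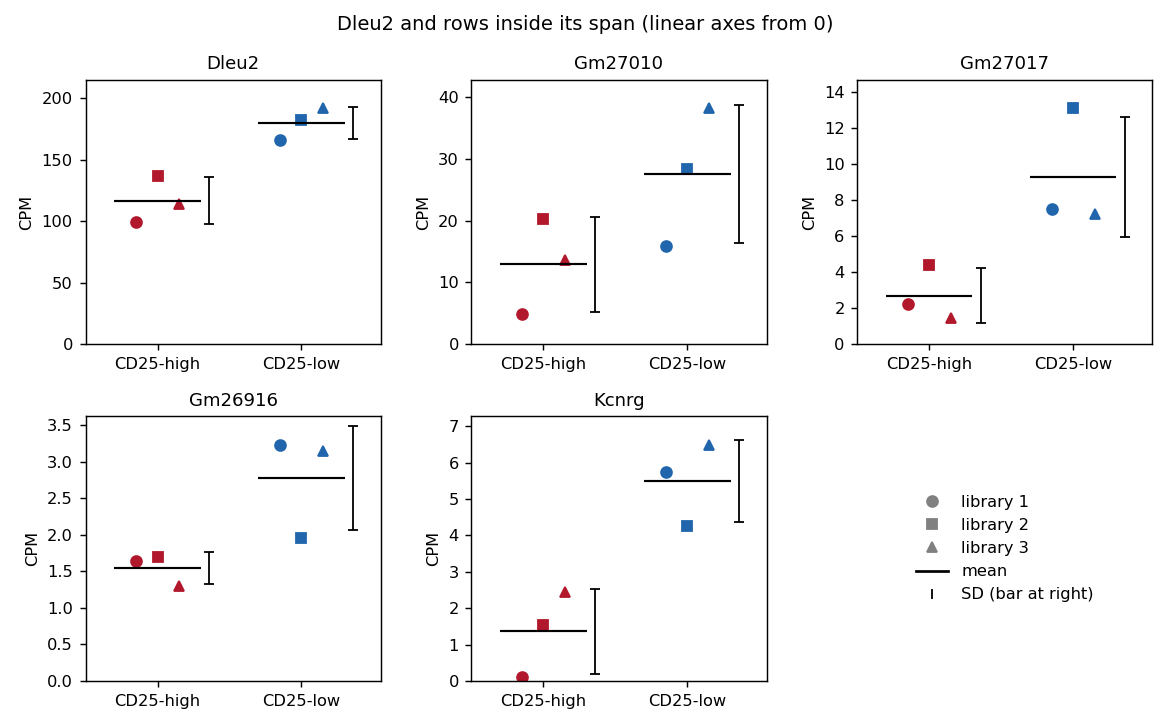
Dleu2 and 4 rows inside its span, in CPM on linear axes that start at 0, in CD25-high libraries (left, red) and CD25-low libraries (right, blue); symbols are libraries 1, 2 and 3, the line is the mean and the bar the SD (n = 3). All 5 have a lower mean in CD25-high libraries, and only Gm27010 overlaps between the groups.

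Neighbours of the other hosts were measured as well. Slc3a2, an amino acid transporter chain whose annotated start lies 106 bases from Snhg1, had 81.6, 57.9 and 52.2 CPM in the CD25-high libraries and 57.9, 26.7 and 40.1 CPM in the CD25-low ones, and did not pass in either fit (edgeR adjusted p = 0.491 without and 0.0906 with the block). Zbtb37, which overlaps the Gas5 span on the opposite strand without sharing an exon base, had a log2 fold change of 0.00. None of the nearest tested genes on either side of the listed RNAs, other than Malat1 next to Neat1, passed between CD25-high and CD25-low cells in either fit.

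Other noncoding hosts of snoRNAs were read from a separate list. Of 17 on the list, 7 were tested, and 0 were called between CD25-high and CD25-low cells without the block, with 1 at an unadjusted edgeR p under 0.05 and 0 called by DESeq2 or limma-voom, and a median log2 fold change of 0.37 against 0.01 over all tested genes. With the block 1 was called: Snhg3, with 33.2, 16.6 and 25.5 CPM in the CD25-high libraries and 19.5, 7.79 and 8.35 CPM in the CD25-low ones, was higher by 1.15 ± 0.28 (edgeR adjusted p = 0.0308, and 0.357 without the block). The blocked call was kept without pair 1 (edgeR adjusted p = 0.0465) and lost without pair 2 or pair 3. Among all tested genes 4.63% were called with the block. Snhg20 had a log2 fold change of -0.71 (edgeR adjusted p = 0.539). By library number 3 of the 7 were called, all higher in libraries numbered 1, where 3.19% of all tested genes were. They were Snhg6 at 1.33, Snhg15 at 1.65 and Zfas1 at 0.97 (edgeR adjusted p = 0.00504, 0.0450 and 0.0351). The median of the 7 was 0.99. Each of these 3 calls was lost without at least 1 single library, with a highest edgeR adjusted p of 0.0872 for Snhg6, 0.232 for Snhg15 and 0.423 for Zfas1.

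The 31 tested protein-coding hosts of snoRNAs had 0 calls without the block and 1 with it, Cct6a, a chaperonin subunit, which was higher in CD25-high cells by 0.76 (edgeR adjusted p = 0.00866, and 0.298 without the block). Of all tested genes 4.63% were called with the block. Hspa8 had a log2 fold change of 0.54 (edgeR adjusted p = 0.430), and the median of the 31 was 0.27. By library number 5 of 31 were called, all higher, where 3.19% of all tested genes were. The 18 tested proteins that build or bind snoRNAs had 0 calls in either CD25 fit and 5 by library number. These 5 were all higher as well, beside the same 3.19%. The 18 had a median of 0.28 for CD25 and 0.58 for library number. Of these, Nop56, a core protein of box C/D complexes, had a log2 fold change of 0.60 (edgeR adjusted p = 0.468) between CD25-high and CD25-low cells and Pih1d1, an assembly factor, -0.70 (edgeR adjusted p = 0.520).

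Genes of the pathways that degrade or house the listed RNAs gave 0 calls between CD25-high and CD25-low cells in both fits: 0 of 15 for nonsense-mediated decay, 0 of 17 for paraspeckle proteins and 0 of 14 for speckle proteins. At an unadjusted edgeR p under 0.05 there were 0, 1 and 0, in that order, and DESeq2 and limma-voom called 0. Their medians were 0.07, 0.05 and 0.15 on the log2 scale. In nonsense-mediated decay, the exon junction helicase Eif4a3 had a log2 fold change of 0.34 (edgeR adjusted p = 0.582) and the decay factor Upf2 one of -0.32 (edgeR adjusted p = 0.632). Among paraspeckle proteins Rbm14 had 0.54 (edgeR adjusted p = 0.435) and Smarca4 0.40 (edgeR adjusted p = 0.502), and among speckle proteins Srrm1 had 0.40 (edgeR adjusted p = 0.462) and Srsf1 0.50 (edgeR adjusted p = 0.497).

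Genes around the microRNA hosts were taken in 4 lists. Beside the counts of these lists, 0.655% of all tested genes were called without the block and 4.63% with it. Of 12 tested genes that process or use microRNAs 0 were called without the block, and Ago2, the slicing Argonaute, was called with it as higher in CD25-high cells. Ago2 had 345, 448 and 476 CPM in the CD25-high libraries, against 163, 273 and 282 CPM in the CD25-low ones, without overlap (log2 fold change 0.85 with the block, edgeR adjusted p = 0.00469, and 0.82 without it, edgeR adjusted p = 0.225). Tnrc6b, its partner in silencing, had -0.53 (edgeR adjusted p = 0.394). Of 5 tested activators of Mir17hg 0 were called without the block and 2 with it: Myc was higher by 0.89 (edgeR adjusted p = 0.0401) and its partner Max lower by a log2 fold change of -0.67 (edgeR adjusted p = 0.0322). Myc had 284, 49.7 and 75.7 CPM in the CD25-high libraries and 90.6, 33.3 and 56.2 CPM in the CD25-low ones. CD25-high library 1 was the highest for Myc, and E2f2, at 172, 357 and 330 CPM in the CD25-high libraries and 119, 274 and 282 CPM in the CD25-low ones, was lowest in both libraries numbered 1. Without the block, the log2 fold change of Myc was 1.19 ± 0.58 (edgeR adjusted p = 0.496), and 0.06 without CD25-high library 1. That of E2f3 was 0.51 (edgeR adjusted p = 0.461). The blocked call of Ago2 was kept without any 1 pair, that of Myc was lost without pair 1, and that of Max was kept only without pair 3 (edgeR adjusted p = 0.0178).

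Among 16 known targets of the miR-17-92 cluster 0 were called without the block and 1 with it, Tgfbr2, a receptor chain for TGF-beta, which was lower in CD25-high cells (log2 fold change -0.78, edgeR adjusted p = 0.0257, and 0.332 without the block). The median of the 16 was -0.08. Among 15 known targets of miR-15a and miR-16 1 was called, Ccnd2, which encodes cyclin D2; 6 of the 15 were at an unadjusted edgeR p under 0.05, where 11.1% of all tested genes were, and DESeq2 and limma-voom called 1 each. It had 211, 139 and 189 CPM in the CD25-high libraries, against 63.8, 54.6 and 42.9 CPM in the CD25-low ones, a log2 fold change of 1.74 ± 0.24 (edgeR adjusted p = 0.0104). This call was lost when CD25-high library 3, CD25-low library 2 or CD25-low library 3 was left out (edgeR adjusted p = 0.0797, 0.0917 and 0.0676), with log2 fold changes of 1.60 to 1.90 over all libraries left out in turn. With the block Ccnd3, encoding cyclin D3, was called as well, at 0.90 (edgeR adjusted p = 0.0130, and 0.401 without the block). The blocked call of Ccnd3 was lost without pair 2, and that of Tgfbr2 was kept only without pair 1 (edgeR adjusted p = 0.0349). The median of the 15 was 0.24.

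The remaining noncoding lists held no call between CD25-high and CD25-low cells in either fit. A list drawn up for further hosts of microRNAs had 6 tested RNAs, and whether each of them hosts a microRNA was not checked. On it Mirt1, annotated as a lincRNA, had a log2 fold change of -0.92 (edgeR adjusted p = 0.532). Lncpint had one of -0.60 (edgeR adjusted p = 0.784), and the median of the list was -0.45. The list for other long noncoding RNAs had 8 tested genes. On it Ptprv, there because GENCODE M21 annotates it as a processed transcript, had a log2 fold change of 0.58 (edgeR adjusted p = 0.590). Miat had -1.72 (edgeR adjusted p = 0.591), with 0 reads in CD25-high library 1. Of 8 tested genes of the stress response, 0 were called without the block, 1 with it and 2 with DESeq2, and the median was 0.16. At an unadjusted edgeR p under 0.05 there were 2 of the 31 protein-coding hosts, 0 of the 18 snoRNA-binding proteins and 2 of the 12 microRNA processing genes. The same level was reached by 2 of the 16 miR-17-92 targets and 1 of the 5 Mir17hg activators. The lists for further microRNA hosts and other long noncoding RNAs had 0 of 6 and 0 of 8. DESeq2 and limma-voom called 0 in each of these lists.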

How the data were processed

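RNA from sorted CD4+ T cells was sequenced in 6 libraries. Per the labels' protocols, total RNA was isolated with the miRNeasy kit and the Ovation RNA-Seq System v2 of NuGEN was used for the libraries. The submitters' processing notes name Novoalign, DESeq2, mm10 and hg19. Not given in the sources used here are their roles, the counting tool, the gene annotation, the strand setting and how multiply matching reads were treated. The authors deposited raw counts, as whole reads per Ensembl gene, and the smallest total of a row was 10. Rows were named with GENCODE M21, in which 15169 of 15445 had a symbol.

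The members and lists were chosen with earlier results of these data known, as was the comparison of libraries numbered 1 with the others. Counts were tested with edgeR 4.0.16 in R 4.3.3 by glmQLFit and glmQLFTest with TMM factors, after filterByExpr (minimum count 10, minimum total 15) had kept 12987 genes, with Benjamini-Hochberg adjustment over all of them and a threshold of 0.05. The CPM given use TMM library sizes, and each SE reflects the spread between libraries. The snoRNA sequences come from GENCODE M21 transcripts and the other sequences from RefSeq (GRCm38.p6). Alternatives were DESeq2 1.42.0, limma-voom (limma 3.58.1), other scalings and filters, the replicate block and libraries left out.

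Genes of the other lists were named if called, up to 3 in each direction, or otherwise the 2 with the smallest p; for likeness the 2 nearest genes per RNA were named, and at each locus the overlapping and nearest tested rows. Snhg6, Snhg15, Zfas1, E2f1, E2f2 and the snoRNAs with values were named after their values were seen. Some genes of the lists are not reported here by name. Whether equal numbers pair the libraries was read off the counts, since no label states it. Over 2000 genes, deviations from the group means correlated at 0.341, 0.187 and 0.157 in same-numbered libraries 1, 2 and 3, all above the limit of 0.1. Unlike numbers had -0.256 to 0.133. The highest of these, CD25-high library 2 with CD25-low library 3, also passed the limit. The counts therefore set number 1 apart but do not establish that numbers 2 and 3 are pairs. The fits were tested on simulated data made from these counts, with 12987 genes. With replicate differences kept, 0% of genes changed by 1 on the log2 scale and 40% of those changed by 2 were recovered without the block. With it they were 35% and 73%, and false calls were 0 without and 6 with the block. That simulation gives same-numbered libraries the same deviation in both groups, which by itself favours the block. Without replicate differences, 9% and 63% were recovered without the block and 4% and 55% with it, each with 4 false calls.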

Additional observations from a re-analysis of the deposited data

How the results depend on the processing

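The count of genes called between CD25-high and CD25-low cells was 85 and was within 1.5 times that under RLE factors, library size alone, limma-voom, other filters and removal of mitochondrial genes. It was 376 with DESeq2, 601 with the replicate block, 461, 486 and 536 with the block without pair 1, 2 and 3, and 380 without both libraries numbered 1, and it ranged over 22 to 130 when 1 library was left out. The 7 listed RNAs gave 0 calls under every setting without the block, 2 with the replicate block (Malat1 and Dleu2), and 0, 1 and 1 when pair 1, 2 or 3 was dropped from the blocked fit. The lists gave 1 call, 3 with DESeq2, 12 with the replicate block, 10, 11 and 11 without pair 1, 2 and 3, 7 without both libraries numbered 1, and 0 to 3 with 1 library left out. The settings that drop a pair or both libraries numbered 1, and the fits of the library-number comparison without 1 library, were chosen after seeing the data. That comparison had 931 calls, and 325 to 670 when 1 library was left out. Among the listed RNAs the sign turned for Mir17hg with the block without pair 1 (-0.12) and without both libraries numbered 1 (-0.13), and for Neat1 with the block without pair 2 (0.05). With 1 library left out the log2 fold changes spanned -0.35 to 0.22 for Neat1, -0.05 to 0.74 for Gas5, -0.04 to 0.79 for Snhg5, -0.10 to 1.13 for Snhg12 and -0.30 to 0.39 for Mir17hg, whereas Malat1 (-0.71 to -0.38) and Dleu2 (-0.75 to -0.52) stayed negative. Such spans also crossed 0 for Snhg6 (-0.31 to 0.87), Zfas1 (-0.15 to 0.81), Lncpint (-0.98 to 0.46), Snord78 (-0.14 to 0.78), Snord47 (-0.61 to 0.92) and Snord99 (-0.12 to 1.42), and Lncpint was 0.50 with the block without pair 2. The cause was not tested.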
